A study of Mus musculus with 8 samples.

Results

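The mTORC1 genes described here are 10 of the 52778 features listed in a table of transcript levels from embryonic mouse heart, and they were chosen by name. They are the sestrins Sesn1, Sesn2 and Sesn3, the stress-induced inhibitor Ddit4, the translation repressor Eif4ebp1, the inhibitor Deptor, the tuberous sclerosis genes Tsc1 and Tsc2, the kinase gene Mtor and its activator Rheb. All 10 symbols were found. Mtor has 1 further entry on an alternative sequence, listed at 0 in every library, and the entry on chromosome 4 was used. The libraries come from ventricular heart of embryos at embryonic day 11.5, with 4 control libraries labelled C57BL/6 WT and 4 libraries from Atf4 frameshift mutants, described as biological replicates and all given batch label 1. The mutants are Atf4(del7/del7) homozygotes, also labelled ATF4 global knockout, in which CRISPR/Cas9 removed 7 bases of exon 3 and left the polyadenylation signal in place. As a global knockout, the allele is not limited to a cell type. No treatment was given to either group. The genotype field of the mutant samples also reads wild type, and group membership was taken from the sample titles.

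mTORC1 is the protein kinase complex that couples growth to nutrients: it is recruited to the lysosome by Rag GTPases when amino acids are plentiful and is switched on there by the small GTPase Rheb. The TSC complex, built on the proteins of Tsc1 and Tsc2, turns Rheb off, and Ddit4 (REDD1) acts through it in hypoxia and stress. Sestrins hold the Rag branch off by binding the GATOR complexes when leucine is scarce, Deptor binds the kinase itself, and active mTORC1 phosphorylates the product of Eif4ebp1 so that it lets go of the cap-binding protein eIF4E. ATF4, a transcription factor of the amino acid and stress response, is known to drive Sesn2, Ddit4 and Eif4ebp1 in stressed cells, and mTORC1 in turn promotes ATF4 synthesis. The comparison of mutants with controls thus asks whether these transcripts depend on ATF4 in the ventricle of untreated embryos.

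The promoters of Sesn2 and Ddit4 are shown because these are the known ATF4 targets among the 10 genes for which RefSeq promoter sequence was at hand (GRCm38.p6). Each runs over the 250 bases before the transcription start, on the strand of the gene, at chr4:132510457-132510706 (minus strand) for Sesn2 and chr10:59951771-59952020 (minus strand) for Ddit4.
Sesn2: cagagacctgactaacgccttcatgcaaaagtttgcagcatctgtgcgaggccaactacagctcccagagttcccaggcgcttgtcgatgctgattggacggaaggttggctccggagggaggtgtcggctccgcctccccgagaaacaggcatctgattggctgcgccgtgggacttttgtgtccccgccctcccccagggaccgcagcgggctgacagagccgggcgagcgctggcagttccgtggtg
Ddit4: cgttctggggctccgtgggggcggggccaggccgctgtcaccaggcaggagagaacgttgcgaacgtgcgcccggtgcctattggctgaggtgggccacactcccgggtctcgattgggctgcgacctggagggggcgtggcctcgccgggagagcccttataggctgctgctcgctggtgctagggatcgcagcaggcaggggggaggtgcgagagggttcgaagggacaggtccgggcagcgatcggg
The core of the C/EBP-ATF response element, TGATGNAA, was searched on both strands of the 300 bases from 250 before to 50 after each start. It was found in 3.97% of 32851 mouse promoters and in 0 of the 9 promoters of the 8 genes that had an entry (Eif4ebp1 and Deptor had none), so nothing is in capitals above. Of 17 other ATF4-linked stress genes with an entry, 7 held it: Asns, Chac1, Nupr1, Pycr1, Slc7a11, Trib3 and Vldlr. Windows of 30 bases around the match, with the matched bases in capitals, are given for Asns (chr6:7693214-7693243, minus strand), the asparagine synthetase gene, and Pycr1 (chr11:120643833-120643862, minus strand), a proline synthesis gene.
Asns: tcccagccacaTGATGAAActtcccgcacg
Pycr1: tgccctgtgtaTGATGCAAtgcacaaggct
A match is a run of letters, not a measured binding site, and no match says nothing of sites outside the window.

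Expression is given as TPM, which is scaled for transcript length and library size, so levels of different genes can be set side by side, while the number of reads behind a value is unknown. The listed features summed to between 923473 and 949762 TPM per library. The Atf4 transcript itself was higher in the mutants, at 166 ± 15.1 against 112 ± 8.07 TPM (SD, n = 4 each, adjusted p of 0.0430), and ATF4 protein is not part of these data. That call was lost in 7 of the 8 fits that left out a library, all but the fit without mutant replicate 4, with log2 fold changes of 0.51 to 0.62 and adjusted p of up to 0.184. It was also lost in 5 of the 9 other alternatives: rescaling without haemoglobin and mitochondrial transcripts (adjusted p of 0.0551), quantile normalization (0.0611), no variance trend (0.215), the replicate block (0.249) and no filter (0.354). The summed ventricular cardiomyocyte markers ranged from 35017 to 37490 TPM in control libraries and from 34402 to 37067 TPM in mutant libraries. Of the 8 markers 3 were higher and 5 lower in mutants, and only Nkx2-5 had an unadjusted p below 0.05 (limma, higher, 0.0163). Of 4 tested atrial markers 2 were higher and 2 lower, and Myl7, higher, had an unadjusted p of 0.0186 (limma). Of 5 epicardial markers 4 were lower, among them Tbx18 with an unadjusted p of 0.0452. Nkx2-5, Myl7 and Tbx18 did not pass the adjustment. The extraction text of the samples speaks of cortical neurons. The 8 cortical neuron markers summed to 8.42 to 13.8 TPM in control libraries and 9.41 to 10.7 TPM in mutant libraries, most of it Tubb3 (7.06 to 11.8 TPM over the 8 libraries) and Stmn2 (1.06 to 1.76 TPM), and Neurod2 and Neurod6 were listed at 0 in all 8. Macrophage markers summed to 60.0 to 76.1 TPM in control libraries and 50.4 to 60.5 TPM in mutant libraries. All 4 tested macrophage markers were lower in mutants, 2 of them with an unadjusted p below 0.05 (limma). Erythroid markers summed to 3967 to 6728 and 3710 to 5216 TPM. Of 6 erythroid markers 5 were lower in mutants, and 1 had an unadjusted p below 0.05. Of all genes tested, 51.8% were lower and 6.10% lay below that p. No macrophage or erythroid marker passed the adjustment. Their part in the values below was not tested, and in bulk tissue fewer cells of a type and less RNA per cell cannot be told apart.

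The 10 genes spanned a wide range of levels. Eif4ebp1 was the most abundant, with a mean of 200.3 TPM over the 8 libraries, which placed it above 95.9% of the 15545 genes tested. Rheb followed at 118.6 TPM, then Tsc2 at 39.9, Ddit4 at 29.4, Sesn3 at 27.7, Mtor at 22.7, Sesn1 at 18.4, Tsc1 at 14.9 and Sesn2 at 8.57 TPM. Deptor was lowest at 0.557 TPM. Neighbours in this order whose ranges over the 8 libraries overlapped were Ddit4 with Sesn3, Mtor with Sesn1, and Sesn1 with Tsc1. Within a library, Ddit4 was above Sesn3 in 6 of 8, Mtor above Sesn1 in 7 of 8 and Sesn1 above Tsc1 in 8 of 8. The ranges of every other pair of neighbours were separate. Rheb was thus 4.77 to 5.76 times as abundant per length as Mtor, the kinase it activates.

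**Figure D1:**
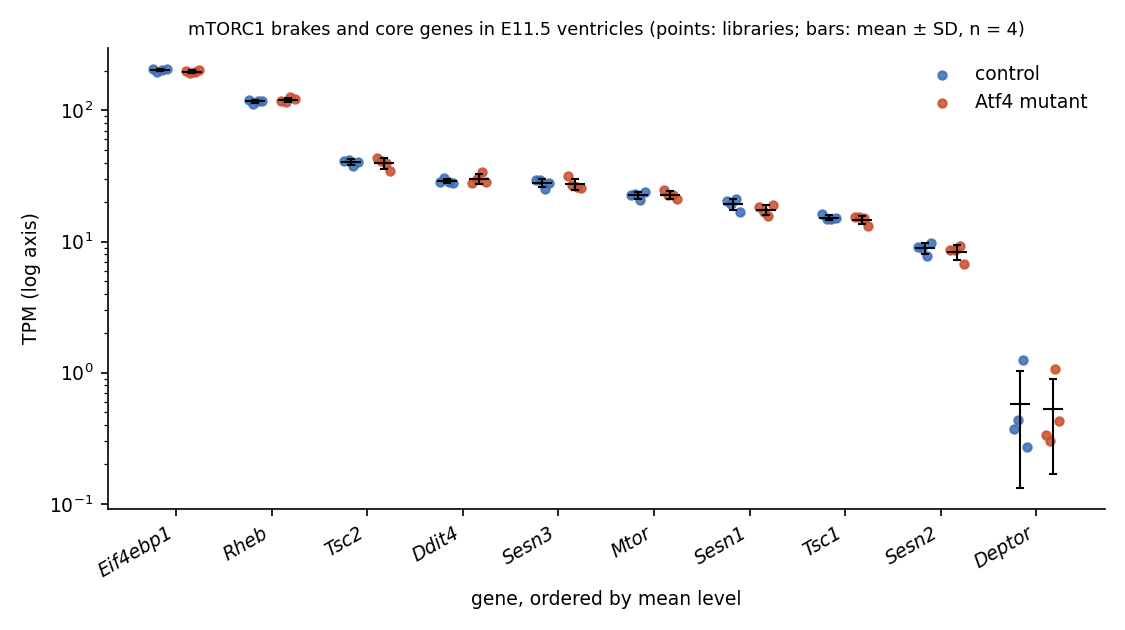
TPM on a log axis of the 10 genes, ordered by mean level, with a point for each of the 4 control and 4 mutant libraries and bars for mean ± SD. Eif4ebp1 and Rheb lie above 110 TPM in every library, Deptor lies near or under 1 TPM, and control and mutant points overlap in each gene.

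None of the 10 genes was found to differ between mutants and controls. Deptor did not reach 1 TPM in 4 libraries and was left out of the test, and of the 9 genes tested 0 had an adjusted p below 0.05 in limma, against 0.0386% of all 15545 genes tested. At an unadjusted p below 0.05 the count was also 0 of 9, where 6.10% of all genes passed. Without control replicate 4 it was 1, Sesn1, and with quantile normalization it was 1, Eif4ebp1 (unadjusted p of 0.0415, limma). In 0 of the 9 did the groups separate without overlap, which they did in 3.68% of all genes. On the log2(TPM + 1) scale, 6 of the 9 fold changes were below 0 and 3 above, from -0.14 for Sesn1 to 0.056 for Ddit4, with a median of -0.027 beside -0.0033 over all genes tested. The smallest unadjusted p was 0.133 and the adjusted p ranged from 0.862 to 0.986. With counts this small, a share of 0 does not set the 9 genes apart from the background.

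**Figure D2:**
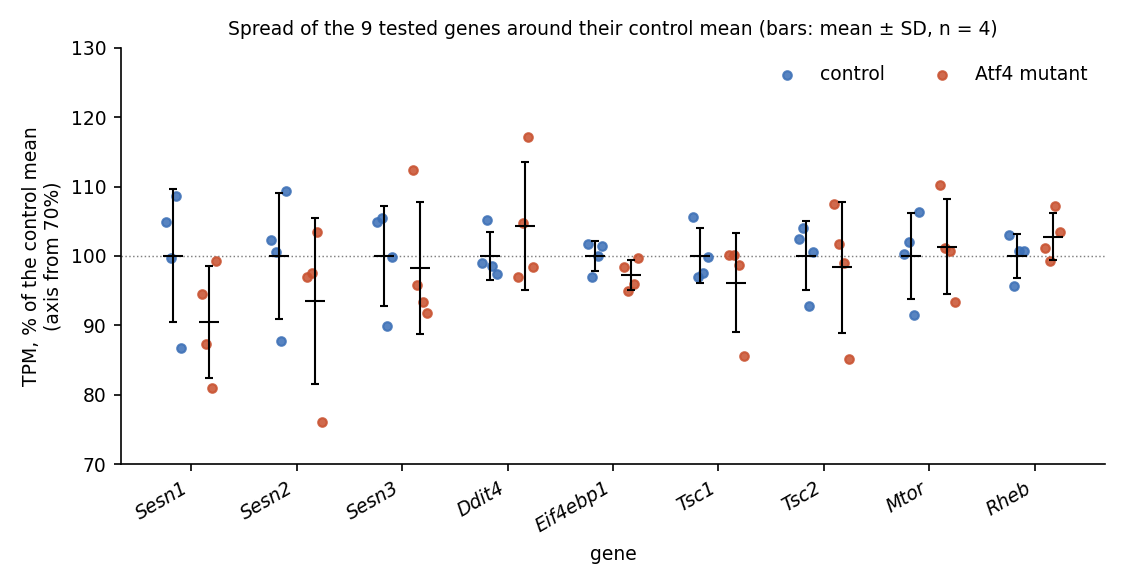
TPM of the 9 tested genes as a percentage of the gene's control mean, with a point per library and bars for mean ± SD (n = 4 per group); the vertical axis starts at 70%. All 72 points lie between 76.1% and 117%, Eif4ebp1 and Rheb form the tightest groups, and the lowest point is mutant replicate 4 in Sesn2.

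The sestrins, which restrain mTORC1 when leucine is low, were measured at 3 distinct levels. Sesn1 (chromosome 10, bases 41810574 to 41908436, plus strand), a p53-responsive sestrin, held 20.2, 19.2, 20.9 and 16.7 TPM in control replicates 1 to 4 and 18.2, 16.8, 15.6 and 19.1 TPM in mutant libraries. Mutant replicate 3 lay below the control range and the other 3 mutants lay inside it. The means were 19.3 ± 1.85 and 17.4 ± 1.55 TPM (SD, n = 4 each), and the log2 fold change of -0.14 (standard error 0.083) had a 95% interval of -0.32 to 0.050. This was the lowest fold change of the 9, and it corresponds to a change of between -20.0% and 3.50% on the TPM + 1 scale. Without mutant replicate 3 it was -0.087, and without control replicate 4 it was -0.20 (unadjusted p of 0.0269, adjusted p of 0.708).

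Sesn2 (chromosome 4, bases 132492804 to 132510456, minus strand) is a leucine-binding sestrin and the family member most closely tied to ATF4. The controls held 9.06, 8.91, 7.77 and 9.69 TPM and the mutants 8.59, 8.64, 9.16 and 6.74 TPM. Mutant replicates 1 to 3 lay inside the control range, and mutant replicate 4 was the lowest of the 8 libraries. The log2 fold change was -0.090 (standard error 0.099, 95% interval -0.31 to 0.13, adjusted p of 0.937). Without mutant replicate 4 it was -0.0057 and without control replicate 3 it was -0.15, so the estimate depended on single libraries. Mutant replicate 4 was also the lowest of the 8 libraries for Tsc1 and Tsc2, and for no other of the 10 genes.

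Sesn3 (chromosome 9, bases 14276301 to 14326134, plus strand), a sestrin under FoxO control in other tissues, held 29.3, 29.5, 25.2 and 27.9 TPM in control libraries and 31.4, 26.8, 26.1 and 25.7 TPM in mutant libraries. The mutant libraries lay on both sides of the control mean, with mutant replicate 1 the highest of all 8. The log2 fold change was -0.026 (standard error 0.074, 95% interval -0.19 to 0.14). Sesn3 was the main sestrin transcript of the ventricle per length: it made up 46.7% to 54.0% of the summed sestrin TPM over the 8 libraries, Sesn1 30.7% to 38.9% and Sesn2 13.1% to 18.0%. The sestrin sum ranged from 53.9 to 58.6 TPM in control libraries and from 50.9 to 58.2 TPM in mutant libraries, and the ranges of each share overlapped between the genotypes.

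Ddit4 (chromosome 10, bases 59949675 to 59951770, minus strand), which activates the TSC complex in hypoxia, held 28.5, 30.3, 28.4 and 28.1 TPM in control libraries and 28.0, 30.2, 33.8 and 28.3 TPM in mutant libraries. Mutant replicate 3 stood above the other 7 libraries, and the other mutants spanned nearly the same values as the controls. The means were 28.8 ± 1.00 and 30.1 ± 2.65 TPM (SD, n = 4 each), for a log2 fold change of 0.056 (standard error 0.061, 95% interval -0.082 to 0.19, adjusted p of 0.939). Without mutant replicate 3 the log2 fold change was 0.00031, and without mutant replicate 1 it was 0.088. The related gene Ddit4l (REDD2) was far less abundant, at 2.99 ± 0.383 TPM in control libraries and 2.29 ± 0.121 TPM in mutant libraries (SD, n = 4 each).

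Deptor (chromosome 15, bases 55112317 to 55259273, plus strand), whose protein binds and restrains the kinase, was at the edge of detection. Its controls held 0.373, 0.433, 1.25 and 0.272 TPM and its mutants 0.332, 0.300, 1.07 and 0.429 TPM. Replicate 3 of each genotype stood above 1 TPM and the other 6 libraries stayed under 0.45 TPM. All 4 mutant values lay inside the control range, and without the filter on low values the log2 fold change was -0.034 with a 95% interval of -0.56 to 0.50, which leaves its direction undetermined.

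Tsc1 and Tsc2 encode the scaffold and the GTPase-activating subunit of the complex that turns Rheb off. Tsc1 (chromosome 2, bases 28640993 to 28691172, plus strand) held 16.1, 14.8, 14.9 and 15.2 TPM in control libraries and 15.3, 15.3, 15.0 and 13.0 TPM in mutant libraries, and mutant replicate 4 was the only mutant library below the control range. Its log2 fold change was -0.055 (standard error 0.063, 95% interval -0.20 to 0.085). With a library left out it ran from -0.075 to -0.0037, the latter without mutant replicate 4. Tsc2 (chromosome 17, bases 24595816 to 24632676, minus strand) held 41.2, 41.9, 37.4 and 40.5 TPM in control libraries and 43.2, 41.0, 39.8 and 34.3 TPM in mutant libraries. Its mutants thus held both the highest and the lowest of the 8 values, and the log2 fold change was -0.027 (standard error 0.070, 95% interval -0.18 to 0.13). The last 699 bases of Tsc2 overlap Pkd1 on the opposite strand, which averaged 10.4 TPM. The labels name both a stranded poly(A) kit and ribosomal RNA depletion, so handling of opposite-strand reads is unknown. The ratio of Tsc2 to Tsc1 was 2.52 to 2.84 in the controls and 2.63 to 2.83 in the mutants.

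Mtor (chromosome 4, bases 148448582 to 148557685, plus strand), the kinase itself, held 22.6, 23.0, 20.6 and 23.9 TPM in control libraries and 24.8, 22.8, 22.7 and 21.0 TPM in mutant libraries. Of the mutants 3 lay inside the control range and mutant replicate 1 above it. Its log2 fold change of 0.018 (standard error 0.063, 95% interval -0.12 to 0.16, adjusted p of 0.986) was the closest to 0 of the 9. Angptl7 lies within Mtor on the opposite strand and averaged 2.81 TPM, and on the same strand lie Gm23318 (3.99 TPM) and Gm24002 (0.0379 TPM). Rheb (chromosome 5, bases 24802823 to 24842361, minus strand) held 121, 112, 118 and 118 TPM in control libraries and 118, 116, 125 and 121 TPM in mutant libraries. The groups overlapped, with 2 mutants inside the control range and 2 above it, and the log2 fold change was 0.039 (standard error 0.036, 95% interval -0.042 to 0.12). That interval is a change of between -2.89% and 8.70% on the TPM + 1 scale. With a library left out, the log2 fold change of Rheb ran from 0.018 to 0.055.

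Eif4ebp1 (chromosome 8, bases 27260327 to 27275656, plus strand) encodes 4E-BP1, the repressor that mTORC1 inactivates to free eIF4E, and was the most precisely measured of the 10. The controls held 207, 197, 203 and 206 TPM and the mutants 200, 193, 195 and 203 TPM. Mutant replicates 2 and 3 lay just below the control range and the other 2 mutants inside it. The means were 203 ± 4.43 and 198 ± 4.42 TPM (SD, n = 4 each), and the log2 fold change was -0.039 (standard error 0.030, 95% interval -0.11 to 0.028, adjusted p of 0.903). The interval corresponds to a change of between -7.14% and 1.98%, the narrowest of the 9 genes. Over the 17 alternatives the log2 fold change ran from -0.057 to -0.028. The lowest came with quantile normalization (limma, unadjusted p of 0.0415, adjusted p of 0.763). The residual SD of Eif4ebp1 on the log2 scale was 0.032, lower than in all but 1.62% of the genes tested, where the median was 0.10.

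The other members of the eIF4E branch, named after their values were seen, were less steady than Eif4ebp1. Eif4ebp1 made up 58.9% to 70.3% of the summed TPM of the 4E-BP genes over the 8 libraries, Eif4ebp2 25.3% to 37.9% and Eif4ebp3 2.98% to 4.36%. Eif4ebp2 held 84.4, 106, 81.9 and 83.9 TPM in control libraries and 74.8, 124, 70.2 and 85.5 TPM in mutant libraries, with replicate 2 of each genotype the highest. Eif4e, which encodes the cap-binding protein that the 4E-BPs hold, held 23.7, 64.1, 21.4 and 23.6 TPM in control libraries and 46.4, 23.1, 49.8 and 23.4 TPM in mutant libraries. Its libraries fell at 2 levels, 3 of them at 46.4 TPM or more and 5 at 23.7 TPM or less, and both levels occurred in each genotype. Its log2 fold change was 0.17 (standard error 0.37, adjusted p of 0.973), and that of Eif4ebp2 was -0.035 (standard error 0.16, adjusted p of 0.992).

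**Figure D3:**
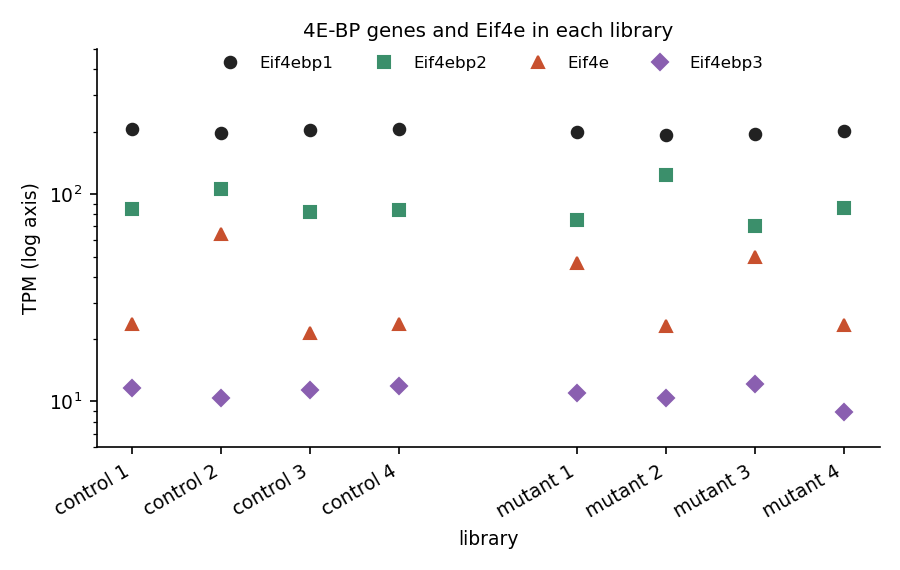
TPM on a log axis of Eif4ebp1, Eif4ebp2, Eif4ebp3 and Eif4e in each of the 4 control and 4 mutant libraries, a symbol per gene. Eif4ebp1 stays between 193 and 207 TPM, while Eif4e lies at 46.4 TPM or more in control 2, mutant 1 and mutant 3 and at 23.7 TPM or less in the other 5 libraries.

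Other genes linked to ATF4 give the scale of change in the same libraries. The list has 20 genes of amino acid synthesis, amino acid transport and stress signalling from general knowledge of the factor, and 17 were expressed enough to be tested. It was drawn up with earlier results of these data known, so its counts and intervals are a description and not independent evidence. All 17 fold changes were below 0 (51.8% of all genes tested were), with a median of -0.22 and a range of -0.46 to -0.040. Of the 17, 2 fell at an adjusted p below 0.05 (0.0322% of all genes), 9 had an unadjusted p below 0.05 and lower values (3.45% of all genes), and 6 had every mutant below every control (2.05% of all genes). The 2 that fell were Phgdh, for the first enzyme of serine synthesis, from 61.2 ± 1.90 to 44.1 ± 1.93 TPM, and Aldh1l2, for a mitochondrial folate enzyme, from 21.2 ± 0.384 to 15.3 ± 1.05 TPM (SD, n = 4 each). Phgdh lost its call without control replicate 2, 3 or 4 (adjusted p of 0.0642, 0.0579 and 0.0619), and Aldh1l2 lost it in each of the 8 fits that left out a library (adjusted p of 0.0639 to 0.206). The 95% interval of Phgdh was -0.56 to -0.37, and its upper end lay below the lower end of the interval of each of the 9 tested mTORC1 genes, the lowest of which was -0.32 for Sesn1. The same held for Aldh1l2 by a very narrow margin, with an upper end of -0.324 beside the lower end of -0.322 for Sesn1. The intervals of the other 15 of the 17 genes overlapped that of Sesn1. Phgdh had the lowest fold change of the 17, and setting intervals side by side is not a test between genes. Asns, whose promoter holds the motif shown above, held 24.5 ± 1.58 TPM in control libraries and 17.7 ± 2.02 TPM in mutant libraries with no overlap (log2 fold change -0.45, adjusted p of 0.336). Of other genes with the motif, Pycr1 (-0.42) also had no overlap, while the groups overlapped for Trib3 (-0.27) and Vldlr (-0.040). Chac1, Nupr1 and Slc7a11, which also hold it, were not expressed enough to be tested. The 17 genes tested are thus not the same set as the 17 with a promoter entry. Phgdh and Aldh1l2 were not among the 7 genes with the motif. Whether the motif goes with the change was not tested. Sesn2, Ddit4 and Eif4ebp1, at -0.090, 0.056 and -0.039, each lay above the median of the list. The difference between these 3 genes and the list was not tested.

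**Figure D4:**
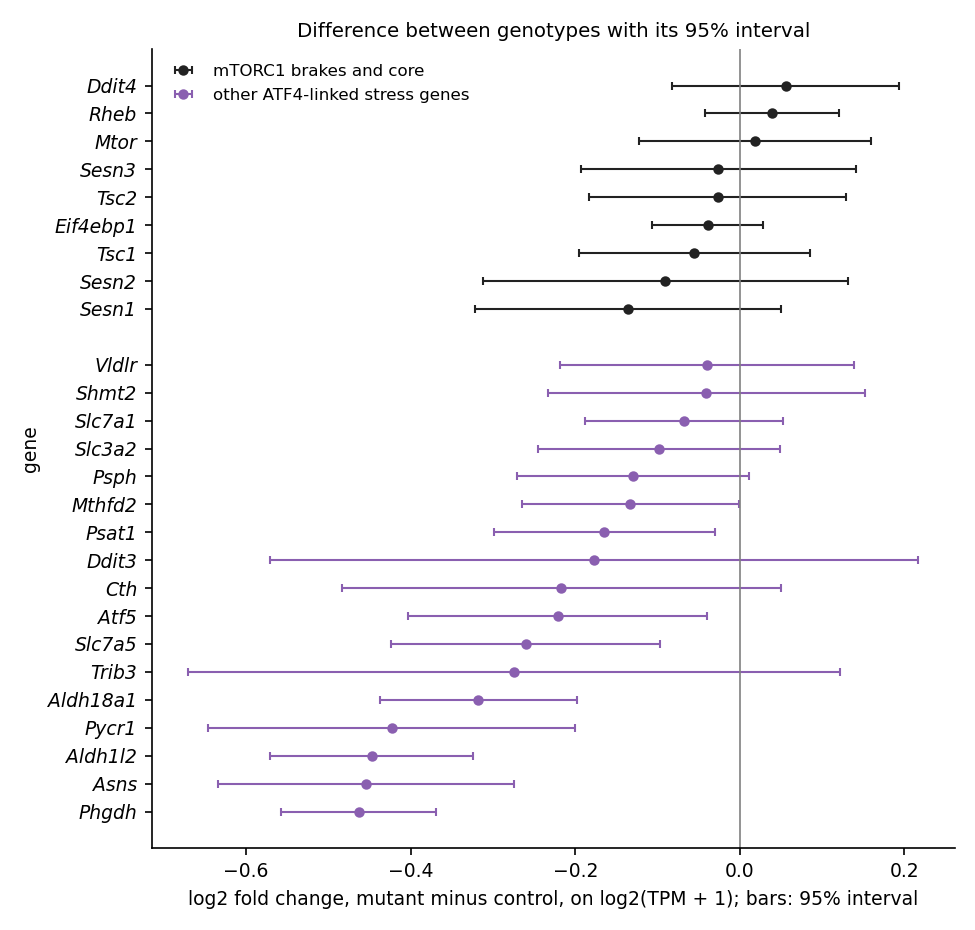
Log2 fold change, mutant minus control, on the log2(TPM + 1) scale with its 95% interval (bars) for the 9 tested mTORC1 genes (black) and 17 other ATF4-linked genes (purple). Each black interval crosses 0, and the purple estimates run from -0.040 for Vldlr to -0.46 for Phgdh.

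The rest of the mTORC1 pathway was described from 5 lists with 73 genes in all, of which 72 were matched and tested. In limma 0 passed an adjusted p of 0.05, and at an unadjusted p below 0.05 there were 2 higher and 1 lower, beside 2.65% and 3.45% of all genes tested. The groups did not overlap in 2 of the 72 that were higher and 1 that was lower in mutants, beside 3.68% of all genes tested in both directions. The median log2 fold change of the 72 was -0.0067, with 34 above 0 and 38 below. Among 10 subunits and assembly factors of the mTOR complexes the median was 0.0044, and 0 had an unadjusted p below 0.05. Tti2, for a chaperone of mTOR-family kinases, stood at a log2 difference of 0.25 (adjusted p of 0.857), and Telo2, for its partner, at -0.15 (adjusted p of 0.841). Tti2 had 0.14 without mutant replicate 1 and 0.39 without mutant replicate 2 (unadjusted p of 0.00430, adjusted p of 0.821). Telo2 had -0.0995 without control replicate 2 and -0.21 without control replicate 3 (limma, unadjusted p of 0.0177, adjusted p of 0.946).

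Among 13 genes of the Rag GTPases, Ragulator and lysosomal amino acid sensing the median was 0.015, with 10 above 0 and 3 below. Rragd, which encodes RagD, a Rag GTPase that takes part in recruiting mTORC1 to the lysosome, held 64.5, 67.3, 63.5 and 66.5 TPM in control libraries and 72.0, 77.0, 73.4 and 73.5 TPM in mutant libraries. Every mutant library lay above every control. The log2 fold change was 0.17 (standard error 0.035), and the unadjusted p of 0.000655 gave an adjusted p of 0.470 over all genes, so the difference did not pass. The lowest p in the other direction belonged to Slc38a9, for a lysosomal arginine sensor, with a log2 difference of -0.055 (adjusted p of 0.953) that ran from -0.094 to -0.031 with a library left out. Among 14 tested genes of the GATOR complexes, KICSTOR and amino acid sensors, the partners of the sestrins, the median was -0.0045 with 7 above 0 and 7 below. Seh1l, a GATOR2 and nuclear pore subunit, had 0.059 (adjusted p of 0.903), and 0.025 without mutant replicate 3.

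Among 19 genes of growth factor and energy input to TSC the median was -0.022, with 5 above 0 and 14 below. Ddit4l held 3.04, 2.44, 3.31 and 3.17 TPM in control libraries and 2.43, 2.27, 2.33 and 2.14 TPM in mutant libraries, and Rhebl1, a Rheb paralogue, held 1.97, 1.91, 2.24 and 1.20 TPM in control libraries and 3.15, 2.35, 2.27 and 2.50 TPM in mutant libraries. Neither gene's groups overlapped, although the gap was narrow in each. The log2 fold changes were -0.27 for Ddit4l (standard error 0.096, unadjusted p of 0.0182, adjusted p of 0.783) and 0.34 for Rhebl1 (standard error 0.14, unadjusted p of 0.0348, adjusted p of 0.809), the latter 0.22 without control replicate 4. Both are low in expression, where the log2(TPM + 1) scale understates a change. Among 16 substrates and outputs the median was -0.020. Eif4g1, for the scaffold that competes with 4E-BPs for eIF4E, had 0.069 (adjusted p of 0.867), and Lpin1, for a phosphatase regulated by mTORC1, -0.16 (adjusted p of 0.858). Without mutant replicate 1 Lpin1 had -0.084, and without control replicate 3 Eif4g1 had 0.040.

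**Figure D5:**
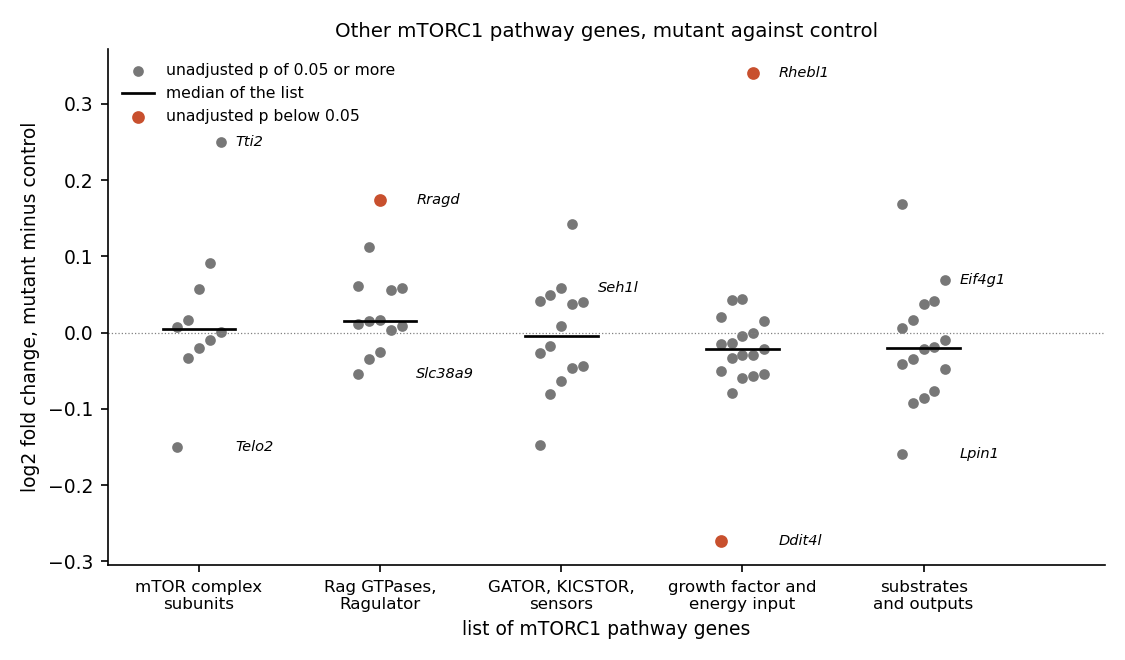
Log2 fold change, mutant minus control, of 72 other mTORC1 pathway genes in 5 lists, a point per gene, with the list median as a line. Most points lie within 0.1 of 0, and the 3 genes with an unadjusted p below 0.05, in red, are Rragd at 0.17, Rhebl1 at 0.34 and Ddit4l at -0.27.

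The genes whose levels ran most like those of the known ATF4 targets over the 8 libraries were picked from 11626 tested genes with a mean of at least 5 TPM, as a description with no test. Those of Eif4ebp1 were Tsc22d1, Cfl1 and Gm17241, with Pearson correlations of 0.951, 0.944 and 0.943. Those of Sesn2 were Fam160a2, Gm25767 and C2cd2l (0.981, 0.980 and 0.975). Those of Ddit4 were Zfp160, Cbr4 and Uchl5 (0.970, 0.952 and 0.927), and with any 1 library left out the value for Uchl5 reached as low as 0.686. The highest of so many correlations over 8 libraries are large by selection, and none of the 9 genes named had an adjusted p below 0.05 between the genotypes (0 of 9 also at an unadjusted p below 0.05, limma).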

How the data were processed

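The deposited table, made by the authors, holds TPM for 8 libraries. The submitters' processing notes name FastQC, Trim Galore 0.6.7, HISAT2 2.2.1, StringTie 2.2.1, featureCounts, DESeq2 and the build GRCm38/mm10, with no roles, and which made the TPM is not given in the sources used here. Coordinates are those of the table, counted from 1. The labels name both a stranded poly(A) kit and ribosomal RNA depletion, so handling of opposite-strand reads is unknown. TPM keeps no read depth, and replicate spread (4 libraries per group) sets the precision.

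Values were analysed as log2(TPM + 1). The 15545 genes that reached 1 TPM in 4 or more of the 8 libraries were fitted in limma 3.58.1 (R 4.3.3) with a variance trend and no covariate, two-sided, with Benjamini-Hochberg adjustment over all of them. The fit was tested on simulated data. Intervals are per gene and not adjusted. Python 3.11.15 with pandas 2.3.3 was used for summaries. The 17 alternatives are given in the closing section.

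The genes and lists were chosen with earlier results of these data known. Named are all 10 genes, Atf4, the gene with the smallest p in each direction of each pathway list (1 of them is not reported here), and the 3 genes most correlated with Sesn2, Ddit4 and Eif4ebp1. Others were named after their values were seen. The symbol Kics2 was not matched.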

Additional observations from a re-analysis of the deposited data

Results flagged for a closer look

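Groups of 4 libraries were examined 58 times, over the genes named in the comparisons, for a library separated from the other 3 by nearly the whole range of its group (Dixon's test at the 95% level). This happened 7 times, and chance alone gives about 2.9 at the 1 in 20 rate of the rule. Of the 7, 2 are in Eif4e and Eif4ebp2, which were named after their values were seen, so the count is not compared with that rate. Deptor was high in replicate 3 of both genotypes, at 1.25 TPM in control replicate 3, where the other controls held 0.272 to 0.433 TPM, and at 1.07 TPM in mutant replicate 3, where the other mutants held 0.300 to 0.429 TPM. Tsc1 was low in mutant replicate 4 (13.0 TPM, others 15.0 to 15.3 TPM).

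In the eIF4E branch, control replicate 2 was high for both Eif4e (64.1 TPM, with the other controls at 21.4 to 23.7 TPM) and Eif4ebp2 (106 TPM, with the others at 81.9 to 84.4 TPM). Mutant replicate 3 was high for Seh1l (74.3 TPM, others 67.2 to 68.2 TPM), and mutant replicate 1 was low for Lpin1 (3.42 TPM, others 4.37 to 4.54 TPM).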

How the results depend on the processing

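The 17 alternatives were quantile normalization, median-of-ratios scaling, no filter, a pseudocount of 0.1 TPM, a filter raised to 5 TPM, library weights, no variance trend, rescaling after removal of haemoglobin and mitochondrial transcripts, the replicate block, and each of the 8 libraries left out. In each, 0 of the mTORC1 brakes and core genes and 0 of the other pathway genes passed, and the lowest adjusted p of a tested mTORC1 gene was 0.708. The 6 genes called over the whole table became 0 with no filter, with no variance trend and with the replicate block, and 0 to 3 with a library left out. The 2 ATF4-linked genes called became 0, 0 and 0 in those settings and 0 to 1 with a library left out; the cause was not tested. The sign changed only with a library left out, for Mtor (range -0.022 to 0.055), Sesn3 (-0.090 to 0.0046), Tsc2 (-0.070 to 0.038), Eif4e (-0.018 to 0.53) and Eif4ebp2 (-0.21 to 0.064). Over all genes tested, no pairing by replicate number was seen. Deviations of same-numbered libraries correlated at -0.082 to 0.035 and of others at -0.054 to 0.057, and 2 of 8 libraries correlated best with their own number. Correlations over all genes cannot settle whether the libraries were collected in pairs. No scaling moved the median of all genes by more than 0.0064.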
